A study of Mus musculus with 13 samples.

Results

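The 51 genes described here act in G2 and mitosis, and were followed in sciatic nerve transcriptomes of control and RaptorKO mice at 5 days post crush (dpc). They were chosen by name as genes of mitotic entry, the spindle, the kinetochore and cytokinesis, with earlier results of these data known. All 51 were found among the 40787 genes of the count table, each under 1 gene ID. RNA was sequenced from 13 nerves with 1 library each. Controls carried floxed Rptor alleles without Cre and gave 3 injured and 3 contralateral nerves, and RaptorKO mice (Rptor flox/flox with an inducible Cre) gave 3 injured and 4 contralateral nerves. Rptor encodes Raptor, a defining subunit of mTORC1, and the Cre transgene recombines the floxed alleles in Schwann cells (SCs) after tamoxifen. All mice, controls included, were C57BL/6 animals that received tamoxifen at 2 months of age, and the crush followed 2 months after the last injection. Contralateral nerves were the uncrushed nerves of the other side, taken at the same time, and nerves of both sides with the same number were read as those of 1 mouse.

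Cells duplicate their DNA in S phase and then build up a mitotic program, which is transcribed mainly in G2 and M. Cyclins A and B activate Cdk1, the kinetochore couples each chromosome to spindle microtubules, and the anaphase promoting complex (APC/C) ends mitosis by marking cyclin B and securin for degradation. After a nerve crush, SCs distal to the lesion lose myelin and re-enter the cell cycle, and macrophages, fibroblasts and vascular cells of the nerve can divide as well. The libraries were made from whole nerve without epineurium, so that fewer dividing cells and less mitotic RNA per dividing cell cannot be told apart.

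Library totals ranged from 8200458 to 13581775 counts. Rptor, the targeted gene, was at 43.4, 49.5 and 35.0 CPM (TMM-scaled counts per 1000000) in control injured and 26.4, 23.3 and 28.8 CPM in RaptorKO injured nerves. In contralateral nerves it was at 51.9, 52.2 and 43.6 CPM in the controls, whereas RaptorKO nerves held 24.2, 22.1, 27.8 and 23.0 CPM, so that the genotypes did not overlap on either side. Both nerves numbered 3 of the controls held 14462 to 15017 Xist counts and the other 11 libraries 4 to 17, which sets the sex of these 2 libraries apart from the rest. All 10 SC markers, Sox10 and S100b among them, were detected widely enough to be tested on both sides.

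The promoters of 42 of the 51 genes were matched by symbol in RefSeq (GRCm38.p6), as 44 windows of 300 bases that run from 250 bases before to 50 bases after the start. They are shown because the genes moved together, and because genes of this kind are known for 2 short elements, the cell cycle homology region (CHR) and the CCAAT box. The CHR was searched as TTTGAA, which is TTCAAA when read from the other strand, and the CCAAT box as CCAAT, which is ATTGG when read from the other strand. In the sequences below, capitals mark these matches. Cdk1, the kinase of mitotic entry, is from chr10:69352863-69353162 (minus strand), Cenpf, a kinetochore protein, from chr1:189688037-189688336 (minus strand), and Mki67, which coats mitotic chromosomes, from chr7:135716330-135716629 (minus strand). Ccnb1 encodes cyclin B1 and is from chr13:100786437-100786736 (minus strand). The windows of Pttg1, which encodes securin (chr11:43425932-43426231 (minus strand)), and Mybl2, a transcription factor of the cell cycle (chr2:163054385-163054684 (plus strand)), are shown as the genes that departed most from the others.
Cdk1: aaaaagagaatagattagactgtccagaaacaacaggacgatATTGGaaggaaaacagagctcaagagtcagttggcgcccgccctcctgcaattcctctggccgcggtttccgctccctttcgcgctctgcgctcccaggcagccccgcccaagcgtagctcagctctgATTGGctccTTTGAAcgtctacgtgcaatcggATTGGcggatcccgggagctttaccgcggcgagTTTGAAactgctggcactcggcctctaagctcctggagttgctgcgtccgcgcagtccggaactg
Cenpf: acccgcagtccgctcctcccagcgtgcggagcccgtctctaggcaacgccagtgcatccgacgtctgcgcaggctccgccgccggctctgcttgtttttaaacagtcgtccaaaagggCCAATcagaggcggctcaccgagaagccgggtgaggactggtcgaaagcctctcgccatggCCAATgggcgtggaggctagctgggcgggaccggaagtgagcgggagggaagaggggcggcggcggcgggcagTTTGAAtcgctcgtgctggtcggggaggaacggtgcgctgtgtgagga
Mki67: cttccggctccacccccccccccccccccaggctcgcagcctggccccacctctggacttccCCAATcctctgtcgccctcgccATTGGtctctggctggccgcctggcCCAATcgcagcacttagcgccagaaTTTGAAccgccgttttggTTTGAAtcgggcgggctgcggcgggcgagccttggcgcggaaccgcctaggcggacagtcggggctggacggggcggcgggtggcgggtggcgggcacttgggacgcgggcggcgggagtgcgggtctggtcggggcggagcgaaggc
Ccnb1: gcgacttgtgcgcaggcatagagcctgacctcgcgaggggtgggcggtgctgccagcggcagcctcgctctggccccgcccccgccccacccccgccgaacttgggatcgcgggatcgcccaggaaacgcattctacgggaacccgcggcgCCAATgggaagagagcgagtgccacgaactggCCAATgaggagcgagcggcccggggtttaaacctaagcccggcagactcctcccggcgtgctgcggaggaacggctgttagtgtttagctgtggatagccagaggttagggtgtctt
Pttg1: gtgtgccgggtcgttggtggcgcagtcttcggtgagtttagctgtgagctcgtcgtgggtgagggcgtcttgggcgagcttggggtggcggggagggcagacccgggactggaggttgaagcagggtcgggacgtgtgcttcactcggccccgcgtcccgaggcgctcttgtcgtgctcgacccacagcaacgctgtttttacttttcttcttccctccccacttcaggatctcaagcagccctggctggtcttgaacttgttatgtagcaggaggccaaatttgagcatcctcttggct
Mybl2: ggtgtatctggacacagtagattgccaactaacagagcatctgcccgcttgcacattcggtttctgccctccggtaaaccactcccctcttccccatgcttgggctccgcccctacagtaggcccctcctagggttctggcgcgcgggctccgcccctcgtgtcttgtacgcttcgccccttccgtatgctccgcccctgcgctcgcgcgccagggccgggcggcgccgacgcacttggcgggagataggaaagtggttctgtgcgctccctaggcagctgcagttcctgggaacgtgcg

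CHR letters were found in 34 of the 44 windows (77.3%), against 17.9% of all 32851 promoters of the same length and 12.2% of the promoters of genes tested in injured nerves. CCAAT letters were in 33 of the 44 windows and in 37.4% of all promoters. Both motifs stood together in 65.9% of the members' windows and in 6.95% of all promoters. In the Cdk1 window, CHR letters began at -71 and -15 from the start, and in that of Cenpf at 3. The Ccnb1 window held 2 CCAAT matches and no CHR letters. Neither motif was found in the windows of 6 members, namely Nuf2, Nusap1, Mybl2, Melk, Pttg1 and Birc5. Of these, Nuf2, Nusap1, Melk and Birc5 were lower in RaptorKO injured nerves, as most members were. Windows without a match were thus not confined to the genes that departed. Among 43 DNA replication and S-phase genes, 14.6% of 41 windows held CHR letters, and among the 15 APC/C core genes 11.8% of 17 windows did. Lists closer in function lay between: CHR letters were in 9 and CCAAT letters in 13 (72.2%) of 18 windows of other G2/M regulators, and in 36.1% and 69.4% of 36 windows of other kinetochore and centromere genes. The members' share with CCAAT letters (33 of 44) was thus near that of these relatives, and both motifs stood together in 38.9% and 27.8% of their windows. A match of letters describes the sequence and is not a bound site, and a window without one says nothing of the factor.

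The first comparison asked how strongly the mitotic genes responded to injury in control nerves. In controls, 50 of 51 were higher in injured than in contralateral nerves and 0 were lower, with a median log2 fold change of 6.37. The test was the quasi-likelihood test of edgeR, and its p-values were adjusted over all genes tested by the method of Benjamini and Hochberg. Calls needed an adjusted p under 0.05 and more than a 1.2-fold change. The count was 98.0% of the members, against 30.6% of all genes tested that were called higher, and the groups did not overlap for 98.0% of the members and 35% of all genes. Of all 14327 genes tested in controls, 4364 were called lower. In RaptorKO nerves, the same test gave 50 members higher and 1 lower, with a median log2 fold change of 4.77. There 28.8% of all genes were higher and 26.5% lower, and the groups did not overlap upwards for 98.0% of the members and 30.7% of all genes. In each genotype the count filter took the mean over both sides, so members with few contralateral counts passed it through injured nerves. The counts, shares and medians include them. With no filter on counts 50 members were again higher in each genotype, with medians of 6.39 and 4.78. At an unadjusted p below 0.05 in the quasi-likelihood test, 0 members were lower in controls. DESeq2 and edgeR's exact test, read at the adjusted p and fold limits, also gave 0 lower there. Cell type markers moved with injury as well. All 15 macrophage markers were higher in both genotypes, with medians of 4.12 and 3.27, and their summed level was 218.9 to 242.2 CPM in control contralateral and 3565 to 4525 CPM in control injured nerves. Of 10 SC markers 6 were lower and 3 higher in controls, and 5 lower and 3 higher in RaptorKO nerves. Of 8 endothelial markers 5 were lower in controls, against 2 lower and 3 higher in RaptorKO nerves, and of 6 pericyte and smooth muscle markers 4 were lower in controls, against 2 lower and 1 higher. Fibroblast and perineurial markers were lower for 4 of 8 and higher for 1 in each genotype. Erythrocyte markers were lower for each one tested, 4 in controls and 5 in RaptorKO nerves. Both neutrophil markers and the single T and NK cell marker tested were higher in each genotype. Of the mast cell markers, 0 of 5 tested were called in controls and 2 of 7 were higher in RaptorKO nerves. What these cells contributed to the injury response of the mitotic genes was not tested.

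Contralateral nerves held very little mitotic RNA. Mean counts were under 10 in contralateral nerves for 22 members, 6 members had a contralateral library at 0, and 5 had 3 counts or fewer in every control contralateral library. Ccnb1 had 1, 1 and 3 counts in control contralateral nerves and 706, 732 and 701 in control injured nerves, a ratio of 453 in scaled counts with a 95% interval of 194 to 1400. The interval (Clopper-Pearson) covers counting error only. Cdk1 had 0, 1 and 4 counts before and 997, 904 and 976 counts after injury, a ratio of 610 (261 to 1880). Bub1, a spindle checkpoint kinase, had 0, 1 and 2 counts against 446, 408 and 323, a ratio of 416 (142 to 2020). These were among the steepest rises, but their size rests on a handful of contralateral counts. Incenp and Anln had more contralateral RNA and smaller ratios. Incenp, the scaffold of the chromosomal passenger complex, rose from 5.43, 8.18 and 8.38 CPM to 93.7, 97.8 and 95.6 CPM, a log2 fold change of 3.67 ± 0.151 (SE; adjusted p = 1.21e-09 by edgeR quasi-likelihood). Anln, which encodes the actin-binding cytokinesis protein anillin, rose from 28.9, 31.8 and 24.2 CPM to 227, 175 and 190 CPM, with a log2 fold change of 2.76 ± 0.129 (SE; adjusted p = 3.53e-09 by edgeR quasi-likelihood).

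Pttg1 was the exception to the response. Securin RNA was at 32.7, 23.9 and 26.4 CPM in control contralateral nerves and at 21.4, 24.9 and 23.2 CPM in control injured nerves, which overlapped, with a log2 fold change of -0.29 ± 0.152 (SE; adjusted p = 0.117 by edgeR quasi-likelihood). In RaptorKO nerves it was at 24.8, 24.1, 22.6 and 24.6 CPM in contralateral and 19.4, 15.7 and 18.6 CPM in injured nerves. It thus fell by 0.44 ± 0.135 on the log2 scale (SE; adjusted p = 0.0176 by edgeR quasi-likelihood), the single member that fell with injury. The call was lost with library totals in place of TMM factors and without RaptorKO injured replicate 2. Espl1, which encodes separase, the protease that securin holds in check, rose by 5.06 ± 0.224 in controls (log2 fold change, SE; adjusted p = 2.13e-09 by edgeR quasi-likelihood).

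Per kilobase of exon, Mki67 had the highest level in control injured nerves at 72 CPM, followed by the spindle assembly factor Tpx2 at 45.2, Ccna2 (cyclin A2) at 42, the spindle protein gene Ckap2l at 40.2, Ccnb2 (cyclin B2) at 35.9 and Top2a (topoisomerase II alpha) at 35.5 CPM. The lowest were Mybl2 at 3.85, Kif15 at 3.83 and Cdc25c, a phosphatase that activates Cdk1, at 1.97 CPM per kilobase. Summed over all members, mitotic RNA was 4870 ± 152 CPM (SD, n = 3) in control injured and 131 ± 9.72 CPM (SD, n = 3) in control contralateral nerves.

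**Figure D1:**
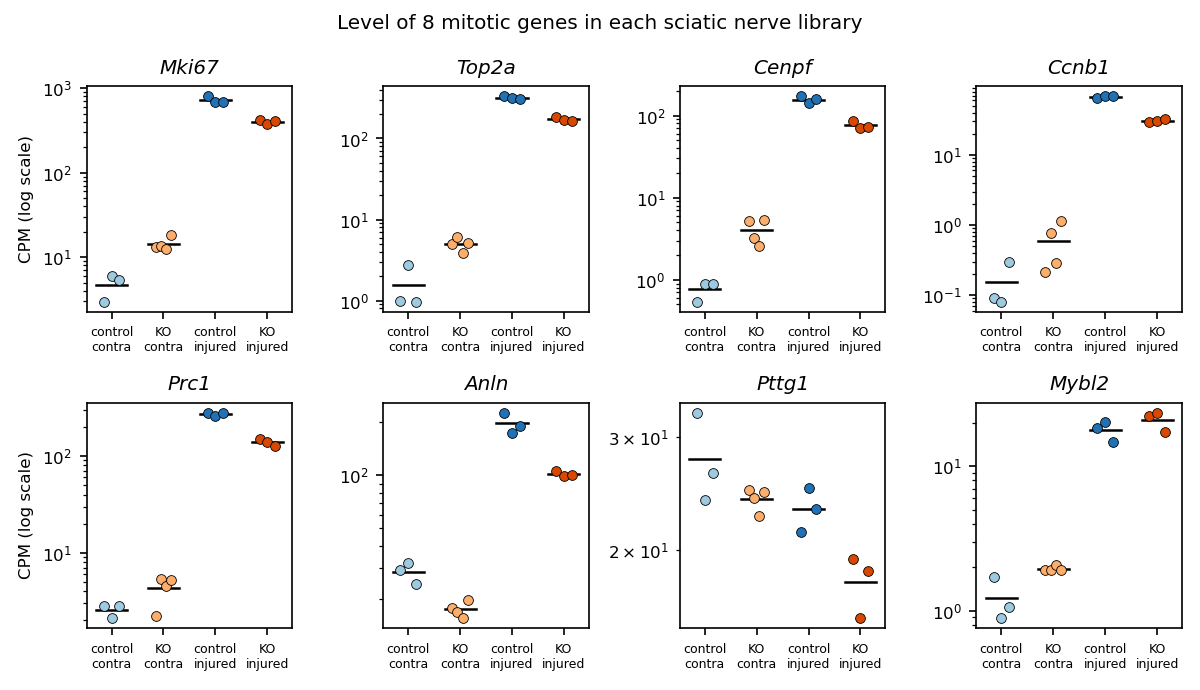
Level of 8 mitotic genes in each of the 13 libraries, in CPM on a log axis whose range differs between panels. Points are libraries and bars are group means. Mki67, Top2a, Cenpf, Ccnb1, Prc1 and Anln were lower in each RaptorKO injured library than in each control injured library, Pttg1 was lower by a small margin, and the Mybl2 groups overlapped.

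The second comparison asked whether mitotic genes differed between RaptorKO and control nerves after injury. In injured RaptorKO nerves, 46 of 51 members were lower and 0 were higher, with a median log2 fold change of -0.87 and a range of -1.13 to 0.25. This was 90.2% of the members, against 3.71% of all genes tested that were lower and 3.39% that were higher, and the median over all genes was 0.00. The groups did not overlap for 50 of the members (98.0%), with each RaptorKO library below each control library, against 13.6% of all genes. At an unadjusted p below 0.05, 0 members were higher in edgeR's quasi-likelihood test. DESeq2 and edgeR's exact test, read at the adjusted p and fold limits, also gave 0 higher. The members differed little among themselves, with 25% of them below -0.93 and 25% above -0.76. The SE of the log2 fold change had a median of 0.134, which is of the order of that spread. Summed over the members, RaptorKO injured nerves held 2668 ± 198 CPM (SD, n = 3), with a range of 2461 to 2856 CPM, and control injured nerves 4771 to 5044 CPM, so that the RaptorKO mean was 54.8% of that of controls. Without control injured replicate 2, 32 members were called, and Cdc25c, Melk, Bub1b, Ttk, Aurkb, Birc5, Incenp, Cdca8, Cenpa, Ndc80, Kif15, Kif18b, Kif4 and Cdc20 no longer passed.

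**Figure D2:**
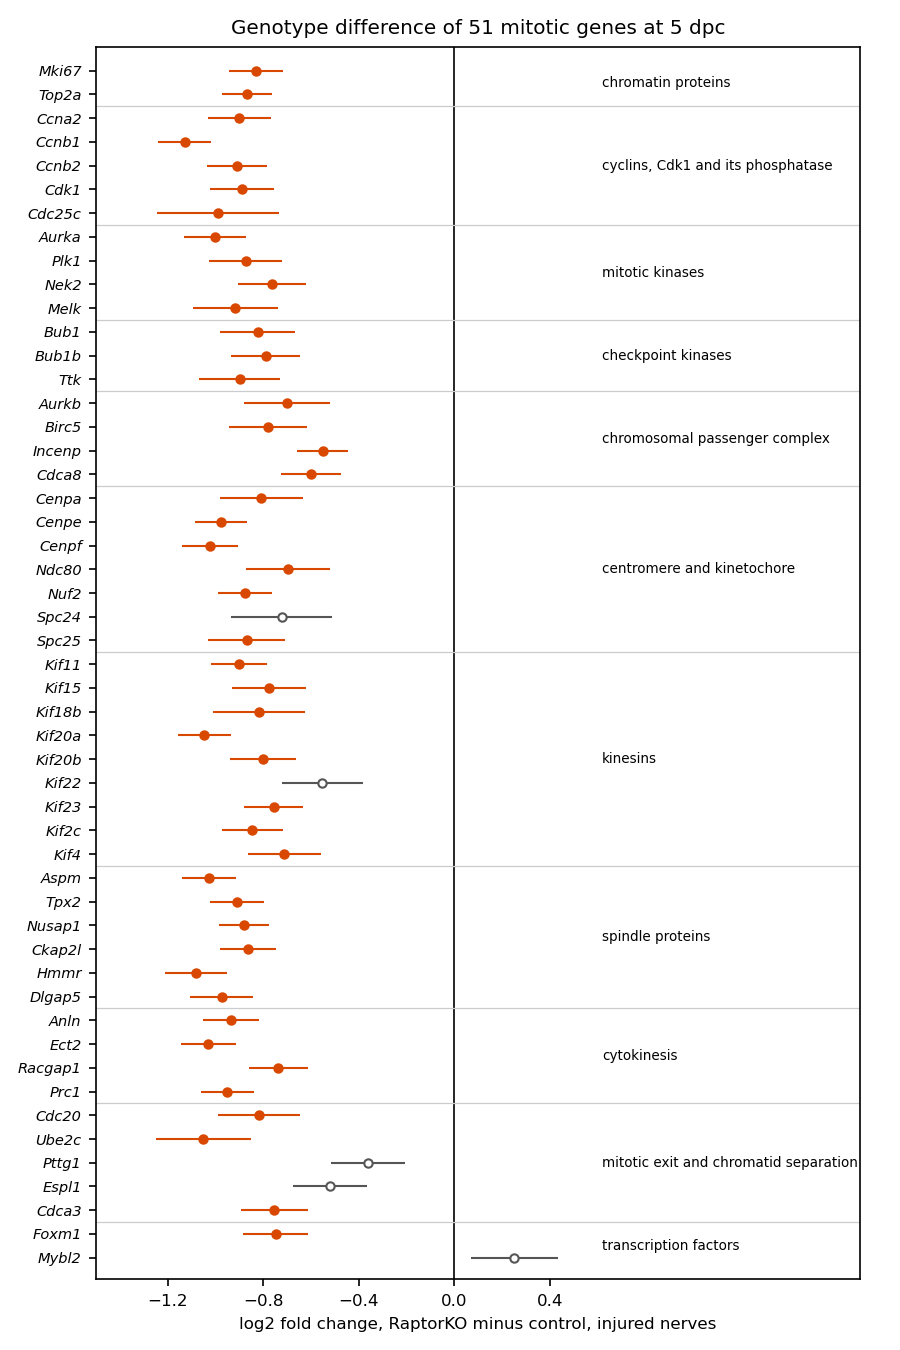
Log2 fold change of the 51 mitotic genes between RaptorKO and control injured nerves (x axis; bars are SE), grouped by role. Filled points mark the 46 genes called lower. Open points are Spc24, Kif22, Espl1, Pttg1 and Mybl2, and Mybl2 is the single gene to the right of 0.

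Among the genes of mitotic entry, all 5 cyclin, Cdk1 and phosphatase genes were lower in injured RaptorKO nerves. Ccnb1 was at 65.3, 68.4 and 68.5 CPM in control and 29.3, 30.0 and 32.2 CPM in RaptorKO injured nerves. Each RaptorKO library held less than any control library, and the level was 45.7% of that of controls, with a log2 fold change of -1.13 ± 0.112 (SE; adjusted p = 3.55e-04 by edgeR quasi-likelihood), the most negative of the members. Cdk1 was at 92.2, 84.5 and 95.4 CPM against 54.9, 50.5 and 39.8 CPM, and Ccna2 at 173, 165 and 178 CPM against 103, 96.2 and 73.5 CPM. In both, RaptorKO replicate 3 was the lowest library. Their log2 fold changes were -0.89 ± 0.134 and -0.90 ± 0.132 (SE; adjusted p = 0.0031 and 0.00269 by edgeR quasi-likelihood). Cdc25c had 112, 105 and 91 counts in control and 70, 55 and 42 counts in RaptorKO nerves, the lowest counts of the members, and its log2 fold change of -0.99 had an SE of 0.257. The mitotic kinases Aurka, Plk1, Nek2 and Melk were all lower, with levels at 49.9%, 54.6%, 58.9% and 53.0% of controls. The chromatin proteins followed the same course. Mki67 was at 804, 691 and 679 CPM in control and 425, 379 and 408 CPM in RaptorKO injured nerves (log2 fold change -0.83 ± 0.114, SE; adjusted p = 0.00196 by edgeR quasi-likelihood). Top2a, which untangles sister chromatids, was at 332, 317 and 311 CPM against 185, 169 and 166 CPM.

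Genes of the chromosome and its attachment to the spindle were lower as well. The checkpoint kinase genes Bub1, Bub1b and Ttk had log2 fold changes of -0.82, -0.79 and -0.90. All 4 genes of the chromosomal passenger complex (Aurkb, Birc5, Incenp and Cdca8) were lower, with a median of -0.65, the closest to 0 among the roles in which each gene was called. Incenp was at 93.7, 97.8 and 95.6 CPM in control and 70.4, 64.7 and 58.8 CPM in RaptorKO nerves, which did not overlap (log2 fold change -0.55 ± 0.106, SE; adjusted p = 0.0109 by edgeR quasi-likelihood). Of the 7 centromere and kinetochore genes 6 were lower. Cenpf was at 172, 141 and 157 CPM against 85.2, 70.5 and 73.0 CPM, with a log2 fold change of -1.02 ± 0.117 (SE; adjusted p = 8.63e-04 by edgeR quasi-likelihood). Cenpe, the kinetochore motor, was at 125, 106 and 118 CPM against 59.0, 54.3 and 62.4 CPM. Within the Ndc80 complex, which binds microtubules, Ndc80, Nuf2 and Spc25 were lower at -0.70, -0.88 and -0.87, and Cenpa, the centromeric histone, was lower at -0.81. Spc24, the remaining subunit, was at 19.5, 22.9 and 24.7 CPM against 15.8, 14.9 and 9.48 CPM. These groups did not overlap, but its log2 fold change of -0.72 ± 0.21 did not pass (SE; adjusted p = 0.0643 by edgeR quasi-likelihood).

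Of the 9 kinesins 8 were lower, with log2 fold changes of -0.71 for Kif4 to -1.05 for Kif20a, a motor of the central spindle. Kif11, the motor that separates spindle poles, was at 104, 89.6 and 108 CPM in control and 57.9, 51.9 and 50.2 CPM in RaptorKO nerves. Kif22, a chromosome arm motor, was not called (-0.55 ± 0.17, SE; adjusted p = 0.0806 by edgeR quasi-likelihood). The others were Kif15, Kif18b, Kif20b, Kif23 and Kif2c, at -0.78, -0.82, -0.80, -0.76 and -0.85. All 6 spindle proteins were lower, from -0.87 for Ckap2l to -1.08 for Hmmr. Tpx2 was at 220, 208 and 206 CPM against 110, 124 and 100 CPM, and Aspm, Nusap1 and Dlgap5 had log2 fold changes of -1.03, -0.88 and -0.97. All 4 cytokinesis genes were lower. Prc1, which bundles central spindle microtubules, was at 281, 258 and 280 CPM against 152, 141 and 126 CPM, and Anln at 227, 175 and 190 CPM against 106, 99.7 and 101 CPM. Ect2 and Racgap1, which activate RhoA at the division furrow, had log2 fold changes of -1.03 and -0.74. Exons of 13 members overlap a gene on the other strand, among them those of Prc1, Kif20a, Nusap1, Ccna2, Cdc20 and Ube2c, and the strand setting of the counting is not given in the sources used here. Pseudogenes of Ccnb1, Ccnb2, Kif4 and Kif22 are annotated, so that their reads could be shared out.

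The other three members not called were genes of mitotic exit and transcription. Ube2c and Cdc20, which serve the APC/C as its ubiquitin-conjugating enzyme and its activator, were lower at -1.05 ± 0.2 and -0.82 ± 0.172 (SE; adjusted p = 0.0102 and 0.0162 by edgeR quasi-likelihood), and Cdca3 at -0.76. Espl1 was at 39.8, 43.9 and 30.2 CPM against 26.2, 28.1 and 24.2 CPM and was not called (-0.52 ± 0.155, SE; adjusted p = 0.0711 by edgeR quasi-likelihood). Pttg1 was not called either (-0.36 ± 0.155, SE; adjusted p = 0.218 by edgeR quasi-likelihood). The 2 transcription factors that act on mitotic promoters had different values. Foxm1 was at 175, 184 and 148 CPM against 110, 108 and 80.9 CPM, with a log2 fold change of -0.75 ± 0.136 (SE; adjusted p = 0.00811 by edgeR quasi-likelihood). Mybl2 was at 18.4, 20.4 and 14.8 CPM in control and 22.2, 23.4 and 17.3 CPM in RaptorKO nerves. Its groups overlapped, and its log2 fold change of 0.25 ± 0.181 did not pass (SE; adjusted p = 0.507 by edgeR quasi-likelihood).

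Related genes outside the members were read from lists in the same test. Other G2/M regulators were lower for 11 of 20 genes and higher for 0, with a median of -0.67, among them Kif14 at -1.12 and Shcbp1 at -1.04. Of the remaining kinetochore and centromere genes, 9 of 35 were lower and 0 higher (median -0.48), with the checkpoint gene Mad2l1 at -0.89. Condensin, which compacts chromosomes, had 4 of 8 subunit genes lower (median -0.57). Of the cohesin genes 1 of 10 was lower, Rad21 at -0.44. The 15 genes of the APC/C core, whose subunits are present through the cell cycle, had 0 calls and a median of -0.17, with 2 lower at an unadjusted p below 0.05. The 11 genes of the MuvB core and pocket proteins, which repress or activate CHR promoters, had 0 calls and a median of -0.21, likewise with 2 lower at an unadjusted p below 0.05.

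The genes of DNA replication had values closer to 0. Of 43 replication and S-phase genes 3 were lower (Rrm1 at -0.48, Rrm2 at -0.60 and Tk1 at -0.60) and 0 higher, with a median of -0.09. The other 40 were not called, and of all genes 3.71% were lower. At an unadjusted p below 0.05 in the same test, 8 were lower and 1 was higher. Pcna, the sliding clamp of DNA polymerases, had a log2 fold change of -0.14 ± 0.101 (SE; adjusted p = 0.514 by edgeR quasi-likelihood). Summed S-phase RNA was 2082 ± 34.3 CPM (SD, n = 3) in control and 1895 ± 113 CPM (SD, n = 3) in RaptorKO injured nerves, 91.0% of controls. Each RaptorKO library held less of it than each control library (1785 to 2011 against 2052 to 2119 CPM). The summed mitotic level divided by the summed S-phase level was 2.38, 2.31 and 2.33 in control injured nerves and 1.42, 1.42 and 1.38 in RaptorKO injured nerves. All RaptorKO ratios lay below all control ratios. A two-sided exact permutation test of 3 against 3 libraries gives p = 0.1 at the smallest, so it could not pass a threshold of 0.05.

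**Figure D3:**
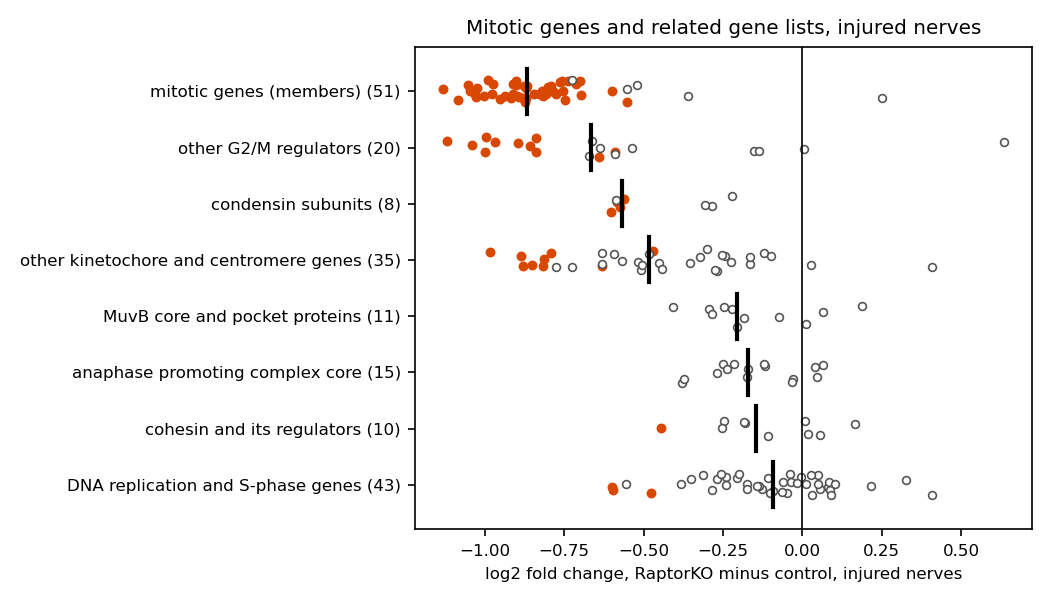
Log2 fold change between RaptorKO and control injured nerves of the 51 mitotic genes and of 7 related lists (number of genes tested in brackets). Filled points are genes called lower, open points genes not called, and black bars list medians, which run from -0.87 for the mitotic genes to -0.09 for the replication and S-phase genes.

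**Figure D4:**
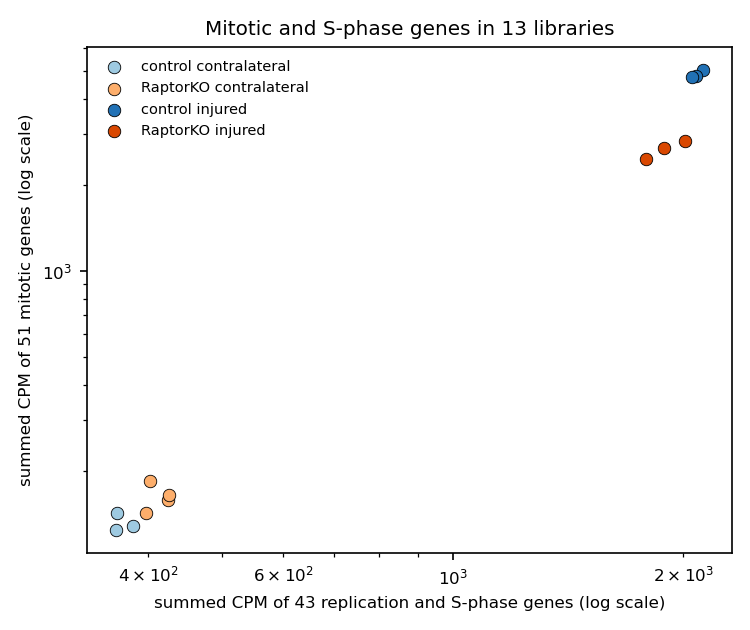
Summed level of the 51 mitotic genes against that of 43 replication and S-phase genes, both in CPM on log axes, 1 point per library. Control and RaptorKO injured libraries do not overlap along the S-phase axis (2052 to 2119 and 1785 to 2011 CPM) and lie further apart along the mitotic axis.

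Cell type markers moved between genotypes in injured nerves too. Of 10 SC markers 2 were lower and 8 were not called. Their median was -0.28, and values ran from -1.09 for S100b to 0.24. The summed level of the 10 was 4946 to 5695 CPM in control and 3619 to 4411 CPM in RaptorKO injured nerves. Of 15 macrophage markers 0 were called, also at an unadjusted p below 0.05, with a median of 0.13 and summed levels of 3565 to 4525 CPM and 2546 to 5029 CPM. Higher in RaptorKO injured nerves were 7 of 8 endothelial, 4 of 6 pericyte and smooth muscle, 2 of 8 fibroblast and perineurial, 6 of 7 mast cell and 4 of 4 tested erythrocyte markers. Of the 7 T and NK cell markers 1 was tested, of the 6 neutrophil markers 3, and none of these was called. At an unadjusted p below 0.05 in the same test, the T and NK cell marker was lower (log2 fold change -1.22). In that reading 0 neutrophil markers were lower or higher. None of the 6 skeletal muscle markers had enough counts to be tested. What these cells contributed to the mitotic genes was not tested.

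The third comparison asked whether the mitotic genes differed between genotypes without a crush. In contralateral nerves 29 members had a mean of 10 counts or more and were tested. Of these, 3 were higher and 1 was lower in RaptorKO nerves (10.3% and 3.45% of the members tested), against 3.52% of all genes that were higher and 4.62% that were lower. The median log2 fold change of the 29 was 0.68, with 24 above 0, against a median of 0.02 over all genes tested. The groups did not overlap for 8 members upwards (27.6%) and 2 downwards (6.9%), against 9.24% and 12.7% of all genes. With no filter on counts all 51 members gave a value, 43 of them above 0, and their median was 0.76, whereas 52.5% of all genes were above 0.

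Mki67 was at 2.99, 5.91 and 5.36 CPM in control and 13.2, 13.4, 12.6 and 18.6 CPM in RaptorKO contralateral nerves. Each RaptorKO library held more than any control library (log2 fold change 1.61 ± 0.258, SE; adjusted p = 0.00385 by edgeR quasi-likelihood). Cenpf had 6, 11 and 9 counts in control and 49, 42, 27 and 42 counts in RaptorKO nerves, again without overlap (2.39 ± 0.442, SE; adjusted p = 0.00793 by edgeR quasi-likelihood). Top2a was at 0.996, 2.75 and 0.974 CPM against 4.96, 6.11, 3.87 and 5.08 CPM (1.66 ± 0.422, SE; adjusted p = 0.0367 by edgeR quasi-likelihood). The calls of Mki67 and Cenpf held with any of the 7 libraries left out. The Top2a call was lost without control contralateral replicate 1 or 3, or without RaptorKO contralateral replicate 1, 2 or 4. Ccna2 had 1, 11 and 8 counts against 20, 29, 21 and 22 counts, which did not overlap, and was not called (1.94 ± 0.598, SE; adjusted p = 0.0734 by edgeR quasi-likelihood). Birc5 (survivin) and Aspm had log2 fold changes of 1.71 and 1.67 that were not called. The levels were low beside injury: the summed members held 123.5 to 142 CPM in control and 142.6 to 183.8 CPM in RaptorKO contralateral nerves.

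Anln went the other way. It was at 28.9, 31.8 and 24.2 CPM in control and 17.6, 16.9, 15.5 and 19.6 CPM in RaptorKO contralateral nerves, and it fell by 0.69 ± 0.138 on the log2 scale (SE; adjusted p = 0.0128 by edgeR quasi-likelihood). The call was lost without control contralateral replicate 1 or 2, when 0 members were lower. Ttk and Plk1 also had negative values, -0.99 and -0.62, neither of them called. In these nerves 8 of 15 macrophage markers were higher in RaptorKO nerves, with summed levels of 218.9 to 242.2 CPM in control and 357.5 to 429.5 CPM in RaptorKO nerves. Also, 3 of 8 fibroblast and perineurial markers were higher, and 3 of 10 SC markers were lower and 1 higher. Among 6 mast cell markers tested 1 was higher (median 1.99), with summed levels of 12.2 to 59.6 CPM in control and 82.2 to 141.6 CPM in RaptorKO nerves. Of 5 erythrocyte markers 1 was higher (73.2 to 138.3 CPM against 137.6 to 252.5 CPM), as was 1 of 6 pericyte and smooth muscle markers, and 0 of 8 endothelial markers were called. Their part in the mitotic genes was not tested. Of 39 replication and S-phase genes tested 2 were higher (Lig1 at 0.67 and Mcm7 at 0.59) and 37 were not called. Of all genes 3.52% were higher.

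The last comparison asked whether the genotype difference depended on injury, by an interaction term over all 13 libraries. It was negative for 50 of 51 members, with a median of -1.52 on the log2 scale, and 23 were called lower and 0 higher by edgeR quasi-likelihood (45.1% of the members, against 1.22% of all genes). The count filter used all 13 libraries, so 22 members with too few contralateral counts to be tested there passed it through injured nerves. The median and the share called include them, with Ccnb1, Cdk1, Melk, Bub1, Aurkb, Hmmr, Dlgap5 and Cdca3 among the calls. At an unadjusted p below 0.05 in the quasi-likelihood test, 0 members were higher. DESeq2, read at the adjusted p and fold limits, also gave 0 higher. The interaction was -2.44 ± 0.251 for Mki67 and -3.39 ± 0.349 for Cenpf (SE; adjusted p = 1.81e-04 for each by edgeR quasi-likelihood). It was -2.52 for Top2a, -2.82 for Ccna2, -1.24 for Cenpe, -1.73 for Prc1 and -1.45 for Foxm1, and all 6 spindle protein genes were called. With a block for the mouse 22 members were called, and Ccnb1, Nusap1, Ckap2l and Dlgap5 no longer passed (adjusted p = 0.0706, 0.0633, 0.0531 and 0.0705 by edgeR quasi-likelihood), whereas Bub1b, Kif4 and Ube2c did. Cdk1 had the most negative value at -3.61 ± 0.677, but control contralateral counts of 0, 1 and 4 make its size uncertain, and its call was lost without control contralateral replicate 2. Anln, which was lower in RaptorKO nerves on both sides, had an interaction of -0.25 ± 0.167 (SE; adjusted p = 0.602 by edgeR quasi-likelihood), and Ttk one of 0.09. The number called was 13 without control contralateral replicate 1, 12 without control contralateral replicate 2 and 9 without both nerves of control replicate 3, the last chosen after seeing the data.

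**Figure D5:**
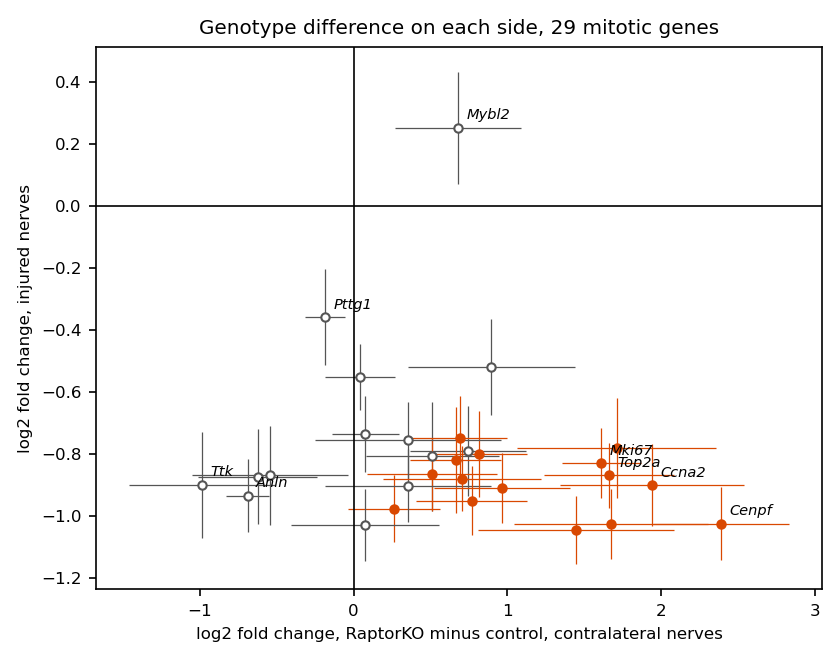
Log2 fold change between RaptorKO and control nerves for the 29 mitotic genes tested on both sides, contralateral on the x axis and injured on the y axis (bars are SE). Filled points are genes whose interaction was called. The 2 axes use different libraries, and 23 of the 29 points lie in the lower right part, 5 in the lower left and 1, Mybl2, in the upper right.

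In CPM, the rise with injury in RaptorKO nerves was 44.5% of that in controls for Ccnb1 and 53.05% for the median of the 50 members that rose, and 115% for Mybl2. Ratios and differences weigh the contralateral level in different ways. The injury rise of Mki67 was 719.9 CPM in controls and 389.4 CPM in RaptorKO nerves, and its log2 fold changes were 7.21 and 4.80. For 23 of the 29 members tested on both sides the interaction set a negative genotype difference in injured nerves against a positive one in contralateral nerves. The contralateral part was called higher for Mki67, Top2a and Cenpf and for no other member, and its estimates rest on few counts. For Ccna2, the difference was -0.90 in injured and 1.94 in contralateral nerves, the latter not called.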

How the data were processed

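RNA sequencing reads of 13 sciatic nerves were trimmed with Trimmomatic, aligned to GRCm38 and quantified with RSEM 1.2.22. The authors deposited the expected count of each gene from RSEM, which divides multiply matching reads among genes, with no normalization. The counts were rounded here, scaled with TMM factors and given as CPM. Gene positions and exon lengths were taken from the GENCODE M21 annotation of GRCm38, and 40634 of 40787 gene IDs were matched.

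The tools were edgeR 4.0.16 and DESeq2 1.42.0 under R 4.3.3, and figures used Python 3.11.15 and matplotlib 3.10.9. Within each comparison, genes with a mean of 10 counts or more were tested by edgeR (quasi-likelihood) with Benjamini-Hochberg correction over the tested genes and calls at adjusted p under 0.05 and over 1.2-fold. This filter was set lower than that of 50 counts in 2 libraries because mitotic genes are scarce in contralateral nerves. Fitted log2 fold changes use a prior count of 0.125. The script was tested on simulated data.

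Within a group the libraries came from separate mice according to the study. The crush was unilateral and the study took the corresponding contralateral nerves, so that same-numbered libraries of 1 genotype were read as both nerves of 1 mouse, which the labels do not state outright. Their deviations from group means correlated at 0.039, 0.103 and 0.229 in controls and -0.013, 0.177 and 0.135 in RaptorKO mice. Between genotypes, where the mice differ, the correlations were 0.018, 0.008 and -0.063 for injured and 0.064, 0.204 and 0.267 for contralateral nerves. The fits reported have no block, and the fit with a block for the mouse is given where it changes a call. Replicates differed by more than sampling noise in each pair.

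The 51 members and all gene lists were chosen with earlier results of these data known. Named genes are the 2 highest of each of 11 roles, the 5 lowest, the 3 most positive and negative of each comparison and those called against the median. Other genes are named as the remaining members of a role or, in lists, after their values were seen. Some genes of these lists are not reported by name here. Alternatives covered scaling, filters, tests, thresholds, a replicate block and leaving out each library.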

Additional observations from a re-analysis of the deposited data

Results flagged for a closer look

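Within the 4 RaptorKO contralateral nerves, 1 library stood apart from the others for 4 of the 34 named members examined, by the gap to its nearest neighbour divided by the range of the group. This share was 0.856 for Mki67, 0.867 for Birc5, 0.883 for Kif20b and 0.961 for Mybl2. For Mki67 (18.6 CPM), Birc5 (3.56 CPM) and Kif20b (6.73 CPM) the highest library was RaptorKO contralateral replicate 4, and for Mybl2 it was replicate 3 (2.08 CPM). Chance gives about 1 such library in 20 groups.

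For 15 named members the interaction test called the difference between RaptorKO and control nerves as unlike in injured and contralateral nerves. All 15 were called lower, as were 1.22% of all genes tested. The interaction on the log2 scale was -2.44 for Mki67, -2.52 for Top2a, -2.82 for Ccna2, -3.61 for Cdk1, -3.37 for Bub1, -2.42 for Birc5 and -3.39 for Cenpf. It was -1.24 for Cenpe, -2.44 for Kif20a, -1.83 for Tpx2, -1.41 for Ckap2l, -1.73 for Prc1, -2.19 for Cdca3, -1.45 for Foxm1 and -3.39 for Melk. Melk, a kinase of dividing cells, had 0, 1 and 2 counts in control contralateral nerves, and Bub1 the same counts, so their sizes are the least certain. Cdk1, Bub1, Cdca3 and Melk had too few counts to be tested in contralateral nerves alone. With a block for the mouse the Ckap2l interaction of -1.49 did not pass (adjusted p = 0.0531 by edgeR quasi-likelihood). Without control contralateral replicate 2 the calls of Cdk1, Bub1, Birc5, Kif20a, Ckap2l, Cdca3 and Melk were lost. Without both nerves of control replicate 3, a run chosen after seeing the data, those of Birc5, Kif20a, Tpx2, Ckap2l, Cdca3, Foxm1 and Melk were lost.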

How the results depend on the processing

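The count of 46 members lower in RaptorKO injured nerves was 37 to 49 under other scalings, filters and tests, 32 at an adjusted p below 0.01, and 32 to 45 with each library left out in turn. The 50 members higher after injury in each genotype were 50 under every alternative run. In contralateral nerves the 3 higher members became 1 with the filter of 50 counts in 2 libraries, under which Top2a and Cenpf were not tested, and 6 with all 13 libraries in 1 fit, and were 2 to 3 with each library left out, and the 1 lower member became 0 at an adjusted p below 0.01 and was 0 to 1 with each library left out. The 1 member lower after injury in RaptorKO nerves became 0 with library totals and at an adjusted p below 0.01, and was 0 to 1 with each library left out. The 23 interaction calls became 8 at an adjusted p below 0.01 and 9 without both nerves of control replicate 3, were 32 with no filter and with DESeq2, and were 12 to 25 with each library left out. Leaving out a library also leaves fewer samples. Other causes of these shifts were not tested. The replicate block gave 43 members lower in injured nerves and 22 interaction calls, and every other count was as without it. Across sides the block stands for the mouse, and there it changed no call of the injury response. Between genotypes it joins different mice that share a number. RaptorKO contralateral replicate 4 has no partner and drops out of the block. Uncalled values near 0 changed sign. Among the named genes these were the contralateral value of Incenp with the replicate block (-0.002) and with single libraries left out (-0.134 to 0.148), that of Kif11 with single libraries left out (-0.147 to 0.6), and the Ttk interaction likewise (-0.206 to 0.386). Contralateral values of Ect2 (-0.298 to 0.735), Kif23 (-0.064 to 1.058), Racgap1 (-0.097 to 0.188) and Spc24 (-0.286 to 0.379) also took both signs over the alternatives run. Library totals in place of TMM factors moved the median of all genes between sides from -0.011 to 0.176 in controls and from 0.024 to 0.169 in RaptorKO nerves, and the members' medians from 6.37 to 6.55 and from 4.77 to 4.915. On 1 strand alone, CHR letters were in 63.6% and CCAAT letters in 52.3% of the members' promoters. Low contralateral counts limit the precision of every ratio to those nerves.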
